A study of Mus musculus with 12 samples.

Results

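The diet response of wild-type mouse liver was described from 6 of the 12 arrays of the series, 3 from wild-type (WT) mice on a high-fat diet (HFD) and 3 from WT mice on regular chow, across all 22180 genes that carried a single gene symbol. The mice were male C57BL/6 animals in weight-matched groups, kept under 12 h of light and 12 h of dark. The HFD held 60% fat, 20% carbohydrate and 20% protein, per the labels, and was fed for 8 weeks. The remaining 6 arrays came from mice labelled as knockouts (KO) of Ahnak, the gene of a giant membrane-associated scaffold, 3 on the same HFD and 3 on chow. The labels number the replicates but do not state that each came from a separate animal, so p-values measure the spread between these samples, which may in part be technical. The sources used here do not give the substrain, the feeding state or the time of day of sampling, and the part of fasting or sampling time in any result was not tested.

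A diet rich in fat delivers fatty acids to the liver, where they are stored as triglyceride in lipid droplets, exported in lipoproteins or oxidised in mitochondria and peroxisomes. The nuclear receptor PPAR alpha drives genes of oxidation, SREBP1 and ChREBP drive genes of fatty acid synthesis and glycolysis, and PPAR gamma drives storage genes in fatty liver. Hepatocytes also secrete much of the plasma protein through the endoplasmic reticulum, run a daily clock that follows feeding, and express many genes under pulsatile growth hormone in a male or a female pattern.

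Log2 fold changes are HFD minus chow, given ± the standard error (SE) of the limma fit, with 3 arrays per group. Signals are on the log2 scale unless called linear, so that a difference of 1 is a change of 2-fold and a difference of 2 one of 4-fold. Signals were compared between arrays for the same gene, and summed linear signals for the same list of markers. The 12 arrays had medians between 5.58 and 5.70. Signals at or below 5.56 were treated as dim, since 95% of 1390 odorant and pheromone receptor genes averaged no more than that. These receptors are known mainly from nasal epithelium, and single ones may be used by liver, so the level is a working one. Over all genes, which are not independent replicates, the 3 chow arrays differed from each other by a root mean square of 0.28 to 0.29 and the 3 HFD arrays by 0.24 to 0.26, while chow and HFD arrays differed by 0.33 to 0.38. Alb, the albumin gene, read 14.05 to 14.16 on all 6 arrays, and 10 of 11 measured hepatocyte markers did not pass the test, the exception being Serpina1a (-0.44 ± 0.09). At an unadjusted p under 0.05 by limma, 2 of these markers were lower and 0 higher, and the lowest of the list stood at -0.45. Xist, which male cells do not express, read 4.24 to 4.76 and so was dim on all 6. With 3 arrays per group, their number sets the precision.

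Of the 22180 genes, 1543 (6.96%) differed between HFD and chow in WT liver at an adjusted p under 0.05 by limma, 891 (4.02%) of them higher and 652 (2.94%) lower on HFD. Without adjustment, 4569 genes (20.6%) had a p under 0.05. The 3 HFD arrays all lay above, or all below, the 3 chow arrays for 5853 genes (26.4%), of which 3153 (14.2%) were higher and 2700 (12.2%) lower. Among the called genes the arrays did not overlap for 888 of 891 that rose and for 649 of 652 that fell. The counts given for gene lists stand beside these shares of 4.02% and 2.94%. Most changes were small: the median size was 0.56 for rises and 0.53 for falls, and 122 rises and 84 falls reached 2-fold. Calls were rare among dim genes, 112 of 8406 (1.33%), and more frequent among the others, 1431 of 13774 (10.4%). With each array centred on its median, 1089 genes were higher and 457 lower, which moved the share of rises from 57.7% to 70.4%, so the balance of small rises and falls depends on the scaling. Leaving out 1 WT array lowered the count of called genes, to 935, 860 and 867 without WT HFD 1, 2 and 3, and to 1054, 1317 and 815 without WT chow 1, 2 and 3.

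The largest rise was that of Cyp2b9, a P450 enzyme gene that is higher in females, which read 7.69, 8.88 and 6.75 on chow and 13.17, 13.30 and 13.40 on HFD. The HFD arrays lay close together and far above the chow arrays, which spread widely (5.52 ± 0.94, adjusted p = 0.0044). Its neighbour in the same subfamily, Cyp2b13, read 4.50, 4.70 and 4.63 on chow and 8.72, 9.03 and 9.87 on HFD, a rise of 4.60 ± 0.31 from a dim level. Orm3, an orosomucoid of the acute phase, rose by 4.08 ± 0.37 and Slc22a27, an organic anion transporter gene, by 3.51 ± 0.28, both also from dim means on chow. For genes that were dim in one group, the direction is better supported than the size. Probe sets of close relatives such as the Cyp2b, Cyp2a, Cyp3a, Cyp4a, Orm, Ugt2b and Hamp genes may share transcripts, and their separate levels are uncertain.

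Rgs16, a regulator of G protein signalling with a daily rhythm in liver, read 7.69, 9.11 and 6.22 on chow and 11.16, 11.50 and 11.73 on HFD (3.79 ± 0.65, adjusted p = 0.00444). No HFD array overlapped a chow array, although the chow arrays spread widely among themselves. Thrsp, a regulator of fatty acid synthesis, rose by 3.30 ± 0.20. Lcn2, the secreted lipocalin 2, rose by 2.89 ± 0.43, Cidea, which fuses lipid droplets, by 2.82 ± 0.40, and Sprr1a, a small proline-rich protein gene, by 2.80 ± 0.12. Ciart, a repressor of the circadian clock, rose by 2.77 ± 0.32, Lpin1, a phosphatidate phosphatase of triglyceride synthesis, by 2.70 ± 0.46, and Gbp10, a guanylate-binding protein gene, by 2.61 ± 0.17.

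The largest fall was that of Cyp4a12b, a fatty acid hydroxylase gene of male mouse liver, which read 12.05, 12.14 and 12.00 on chow and 8.61, 8.95 and 8.57 on HFD (-3.36 ± 0.18, adjusted p = 2.48e-06). Il1b, the inflammatory cytokine interleukin 1 beta, read 8.89, 7.55 and 8.76 on chow and 5.94, 6.07 and 6.05 on HFD (-2.38 ± 0.33, adjusted p = 0.00134). Both sets of arrays were apart, with the 3 HFD arrays close together. Falls of more than 2 units were also seen for Ugt2b38, a glucuronosyltransferase gene (-2.34 ± 0.28, dim on HFD), the kinase gene Sik1 (-2.32 ± 0.43), the insulin receptor substrate gene Irs2 (-2.29 ± 0.30), Csad, an enzyme of taurine synthesis (-2.28 ± 0.16), Igfbp1, which binds insulin-like growth factors (-2.23 ± 0.30), the oxysterol hydroxylase gene Cyp7b1 (-2.16 ± 0.24) and Socs2, an inhibitor of growth hormone signalling (-2.07 ± 0.22). These calls held whichever array was left out. Other falls of more than 2 units lost their calls when any 1 of several arrays was left out. They were those of Asns, the asparagine synthetase gene (-2.31 ± 0.60), the adhesion receptor gene Adgrf1 (-2.19 ± 0.51) and the steroid dehydrogenase gene Hsd3b5 (-2.13 ± 0.51). The call of Asns was lost when 1 of KO HFD 1, 2 and 3, KO chow 1 and 3, WT HFD 1, 2 and 3 and WT chow 1 and 3 was left out (adjusted p from 0.0504 to 0.111). That of Adgrf1 was lost when 1 of WT HFD 1, 2 and 3 and WT chow 1 and 3 was left out (adjusted p from 0.0659 to 0.0776), and that of Hsd3b5 without WT HFD 3 (adjusted p = 0.102), WT chow 2 (0.0819) or WT chow 3 (0.105).

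**Figure D1:**
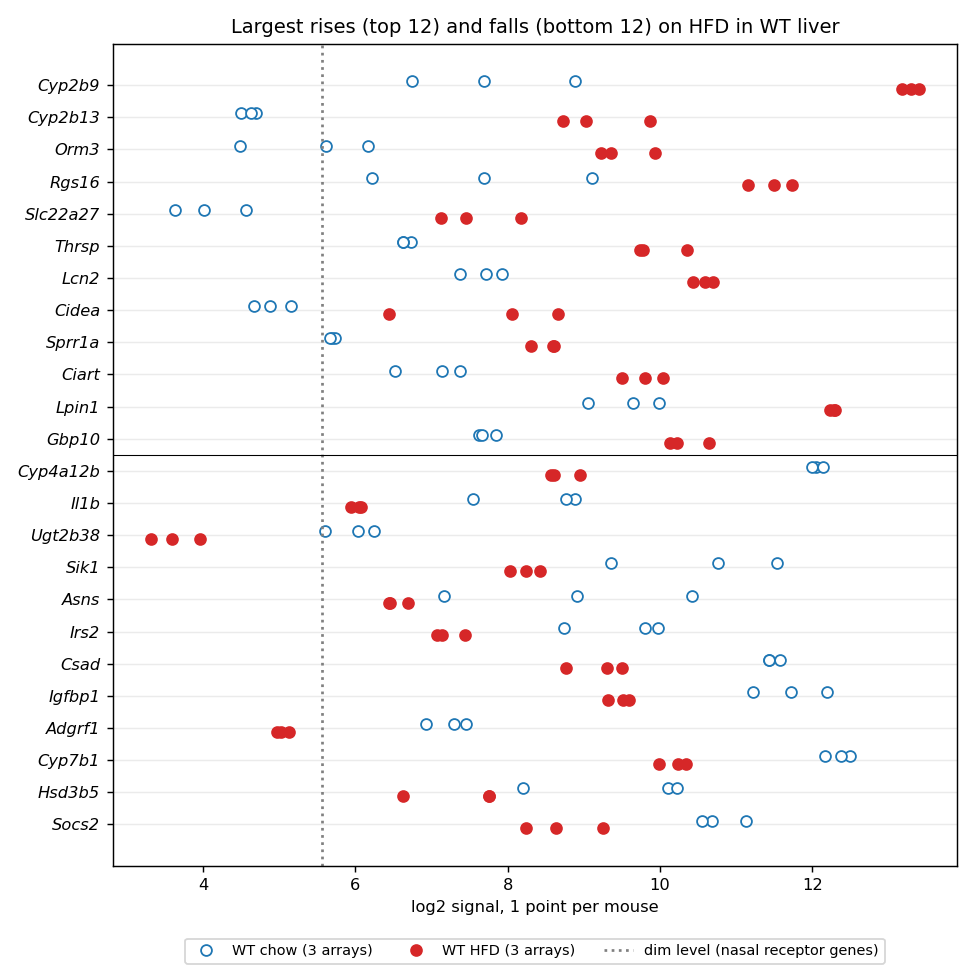
Log2 signal (horizontal axis) in each of the 3 WT chow arrays (open blue circles) and 3 WT HFD arrays (filled red circles) for the 12 genes with the largest rise and the 12 with the largest fall, with the dim level of 5.56 as a dotted line. Each circle is an array, and the axis wording "per mouse" goes beyond the labels, which do not state separate animals. The 24 genes were chosen among called genes whose arrays did not overlap, so the circles of both diets are apart by choice. Cyp2b9, Rgs16, Sik1 and Asns spread widely among chow arrays.

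Many genes of the endoplasmic reticulum, where secreted proteins are folded, rose. Of 23 measured chaperones and helpers of folding and degradation 14 (60.9%) rose, where 4.02% of all genes rose, and 9 did not pass, among them Calr, Canx, P4hb and Atf6. The list had a median of 0.44, against 0.0033 over all genes, and its lowest member stood at 0.05. Hspa5, the main chaperone of the compartment, read 10.03, 10.72 and 10.40 on chow and 11.12, 11.28 and 11.08 on HFD (0.78 ± 0.17, adjusted p = 0.0176). Creld2, a secreted chaperone, read 10.34, 10.86 and 10.88 on chow and 11.60, 11.99 and 12.04 on HFD (1.19 ± 0.16, adjusted p = 0.00116). In both, every HFD array was above every chow array, and WT chow 1 was the lowest. The disulfide isomerase gene Pdia6 rose by 0.79 ± 0.13, the co-chaperone gene Dnajb11 by 0.64 ± 0.10, Hyou1, a large chaperone, by 0.92 ± 0.14 and Herpud1, which serves protein degradation, by 0.93 ± 0.19. Sdf2l1 also rose (1.26 ± 0.27), but did not pass without WT HFD 2 (adjusted p = 0.0593), WT HFD 3 (0.057) or WT chow 1 (0.0653). Xbp1, which encodes a transcription factor of this programme and is controlled by splicing, differed by little (0.05 ± 0.08, adjusted p = 0.799). The count of members that rose was 5 without WT HFD 2 or WT chow 1, 6 without WT HFD 3, 8 without WT chow 3 and 9 with the WT arrays alone.

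The endoplasmic reticulum stress element, CCAAT and CCACG with 9 bases between them, is the known promoter site through which these chaperones respond to unfolded protein. It was searched on both strands from 250 bases before to 50 after each RefSeq gene start (assembly GRCm38.p6) and lay in 39 of 32851 promoters (0.119%). Among the 20 chaperone genes of the list with a promoter it lay in 8, and 6 of these 8 genes rose. The element lay in 0.171% of measured genes with a promoter. Of these 29 genes 9 rose, where 4.02% of all genes rose, namely Alg12, Creld2, Derl3, Dnajc3, Ero1b, Hsp90b1, Hspa5, Pdia6 and Syvn1. The call of Alg12 held without any 1 array. The call of Derl3 was lost without WT HFD 1 (adjusted p = 0.0544), WT HFD 2 (0.0565) or WT HFD 3 (0.0848), that of Ero1b was lost without WT HFD 1 (adjusted p = 0.0846), WT HFD 2 (0.0931) or WT chow 1 (0.0634). A match is a description of the letters and shows no binding. The stretches around the element are shown for the 6 chaperone genes that rose, 5′ to 3′ on the strand of the gene, with the element in capitals. In Creld2 it runs on the opposite strand (capitals begin with CGTGG), and Hsp90b1 carries it once on each strand.
Hspa5, chr2:34772000-34772068, plus strand: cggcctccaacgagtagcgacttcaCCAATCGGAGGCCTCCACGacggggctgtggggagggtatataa
Hsp90b1, chr10:86705508-86705681, minus strand: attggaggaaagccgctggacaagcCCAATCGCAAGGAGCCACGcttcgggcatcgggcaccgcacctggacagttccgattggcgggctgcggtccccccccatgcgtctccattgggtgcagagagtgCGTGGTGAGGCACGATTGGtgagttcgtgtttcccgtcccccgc
Pdia6, chr12:17266466-17266534, plus strand: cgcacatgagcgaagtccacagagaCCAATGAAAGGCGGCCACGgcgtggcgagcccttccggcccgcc
Creld2, chr15:88819495-88819563, plus strand: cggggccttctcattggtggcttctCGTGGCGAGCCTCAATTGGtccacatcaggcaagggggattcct
Syvn1, chr19:6046507-6046575, plus strand: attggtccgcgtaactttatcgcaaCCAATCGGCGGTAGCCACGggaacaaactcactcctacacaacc
Dnajc3, chr14:118937802-118937870, plus strand: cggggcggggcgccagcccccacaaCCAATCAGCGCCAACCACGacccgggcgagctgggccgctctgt
The elements began 65, 98, 44 and 105 bases before the start in Hspa5, Pdia6, Syvn1 and Dnajc3, and 126 bases before it in Creld2. Hsp90b1, the endoplasmic HSP90 chaperone, rose by 0.42 ± 0.10, Syvn1, a ubiquitin ligase of protein degradation, by 0.71 ± 0.16 and the co-chaperone gene Dnajc3 by 0.29 ± 0.07. The call of Hsp90b1 was lost when 1 of WT HFD 1, 2 and 3 and WT chow 1 and 3 was left out (adjusted p from 0.0804 to 0.11), that of Syvn1 was lost when 1 of WT HFD 2 and 3 and WT chow 1 and 2 was left out (adjusted p from 0.0575 to 0.0889), that of Dnajc3 was lost when 1 of KO chow 1 and 2, WT HFD 1, 2 and 3 and WT chow 1 and 3 was left out (adjusted p from 0.051 to 0.117), that of Hspa5 was lost without WT HFD 2 (adjusted p = 0.07), WT chow 1 (0.0584) or WT chow 3 (0.0557).

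The integrated stress response, which acts through ATF4 when translation is slowed, moved in both directions. Of 22 measured members 5 (22.7%) rose and 4 (18.2%) fell, where 4.02% of all genes rose and 2.94% fell. Ddit3, which encodes the transcription factor CHOP, read 7.11, 7.43 and 7.16 on chow and 8.13, 8.70 and 8.59 on HFD (1.24 ± 0.22, adjusted p = 0.00503). Chac1, which degrades glutathione, rose by 1.46 ± 0.17, Ddit4, an inhibitor of mTOR, by 1.31 ± 0.20, the lipoprotein receptor gene Vldlr by 0.87 ± 0.16 and the cystine transporter gene Slc7a11 by 0.58 ± 0.10 within the dim range. Atf5, another transcription factor of the response, fell by 0.98 ± 0.13 and Fgf21, a liver hormone raised by fasting, by 1.57 ± 0.30. The other 2 that fell were Asns and Cth, the cystathionine lyase gene (-0.51 ± 0.11), whose call was lost without WT HFD 2 (adjusted p = 0.0534) or WT chow 1 (0.0549). The count of falls was 2 without WT HFD 2 and 2 without WT chow 1. On chow, Asns read 10.42, 7.17 and 8.91, so that 1 chow array was near the HFD range of 6.44 to 6.69.

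Several output genes of the clock rose. Of 14 core clock genes only Ciart passed (none fell, against 1 without WT HFD 1 or WT chow 2, 1 with the replicate block or with trend and robust settings and 2 among genes above the dim level or among genes above the median), and it read 6.52, 7.14 and 7.38 on chow and 9.50, 9.80 and 10.04 on HFD (2.77 ± 0.32, adjusted p = 0.000399). Of 17 output genes 7 (41.2%) rose and 1 (5.88%), the junction gene Cldn1 (-0.84 ± 0.20), fell, where 4.02% of all genes rose and 2.94% fell, with a list median of 0.50. Besides Rgs16, the glucocorticoid-induced gene Tsc22d3 rose by 0.90 ± 0.14, the uridine phosphorylase gene Upp2 by 0.86 ± 0.23, Dbp, a transcription factor at the clock's output, by 1.24 ± 0.26, and the ubiquitin protease gene Usp2 by 1.69 ± 0.38. Dbp lost its call without WT HFD 2 (adjusted p = 0.0603) or WT HFD 3 (0.0538), and Usp2 without WT HFD 1 (adjusted p = 0.0601), WT HFD 2 (0.0649) or WT HFD 3 (0.0567). The count of output genes that rose was 2 without WT HFD 2 or 3 and 4 without WT chow 3. The call of Upp2 was lost when 1 of KO HFD 3, KO chow 1, 2 and 3, WT HFD 1, 2 and 3 and WT chow 1, 2 and 3 was left out (adjusted p from 0.053 to 0.14), that of Cldn1 was lost when 1 of WT HFD 1, 2 and 3 and WT chow 1 and 3 was left out (adjusted p from 0.0577 to 0.0981). The count of output genes that fell was 0 without WT HFD 1, 2 or 3 or WT chow 1 or 3 and 3 without WT chow 2.

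The core activator Arntl (BMAL1) read 9.68, 8.10 and 8.82 on chow and 8.04, 7.66 and 7.88 on HFD. The HFD arrays were lowest, but WT chow 2 lay close to them, and the difference of -1.01 ± 0.29 did not pass (adjusted p = 0.0567), while without WT chow 2 it did (adjusted p = 0.00429). Nr1d1, its repressor REV-ERB alpha, differed by 0.22 ± 0.18 (adjusted p = 0.549). Lepr, the leptin receptor gene, read 10.46, 8.18 and 7.21 on chow and 6.36, 6.42 and 6.27 on HFD, a difference of -2.27 ± 0.66 that did not pass (adjusted p = 0.062) and did without WT chow 3 (adjusted p = 0.0233). Of 20 immediate early genes, which answer to acute stimuli, 1 fell, Egr1 (-1.52 ± 0.24). Falls in this list numbered 2 without KO HFD 1 or 3, 9 without WT chow 2, 2 with the replicate block or with the mean of probe sets, 3 with trend and robust settings, 4 among genes above the dim level and 5 among genes above the median. Nr4a1, an orphan receptor of this group, read 9.79, 8.48 and 11.64 on chow and 7.72, 7.68 and 7.36 on HFD (-2.38 ± 0.67, adjusted p = 0.0531), and passed without WT chow 2 (0.0119), KO HFD 1 (0.048) or KO HFD 3 (0.0348). Over all genes, 25 had a standard deviation over 1 among the 3 chow arrays and 6 among the 3 HFD arrays.

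The E-box CACGTG, the site bound by the clock's activators, lay in 7.15% of all promoters on either strand. Counted by gene, it lay in 4 of 13 core clock genes with a promoter, against 9.19% of all measured genes with a promoter. Ciart holds it 3 times, in the stretch below, where the capitals mark the E-boxes. The stretch is shown because Ciart was the core clock gene that changed. The other core clock genes with an E-box did not pass.
Ciart, chr3:95882242-95882369, minus strand: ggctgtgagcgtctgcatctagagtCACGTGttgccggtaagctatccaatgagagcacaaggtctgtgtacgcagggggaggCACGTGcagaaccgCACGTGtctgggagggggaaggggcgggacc
Among the 714 genes with a promoter that rose on HFD, 9.94% held an E-box, and among the 506 that fell 11.5% did, against 9.19% of all measured genes with a promoter.

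**Figure D2:**
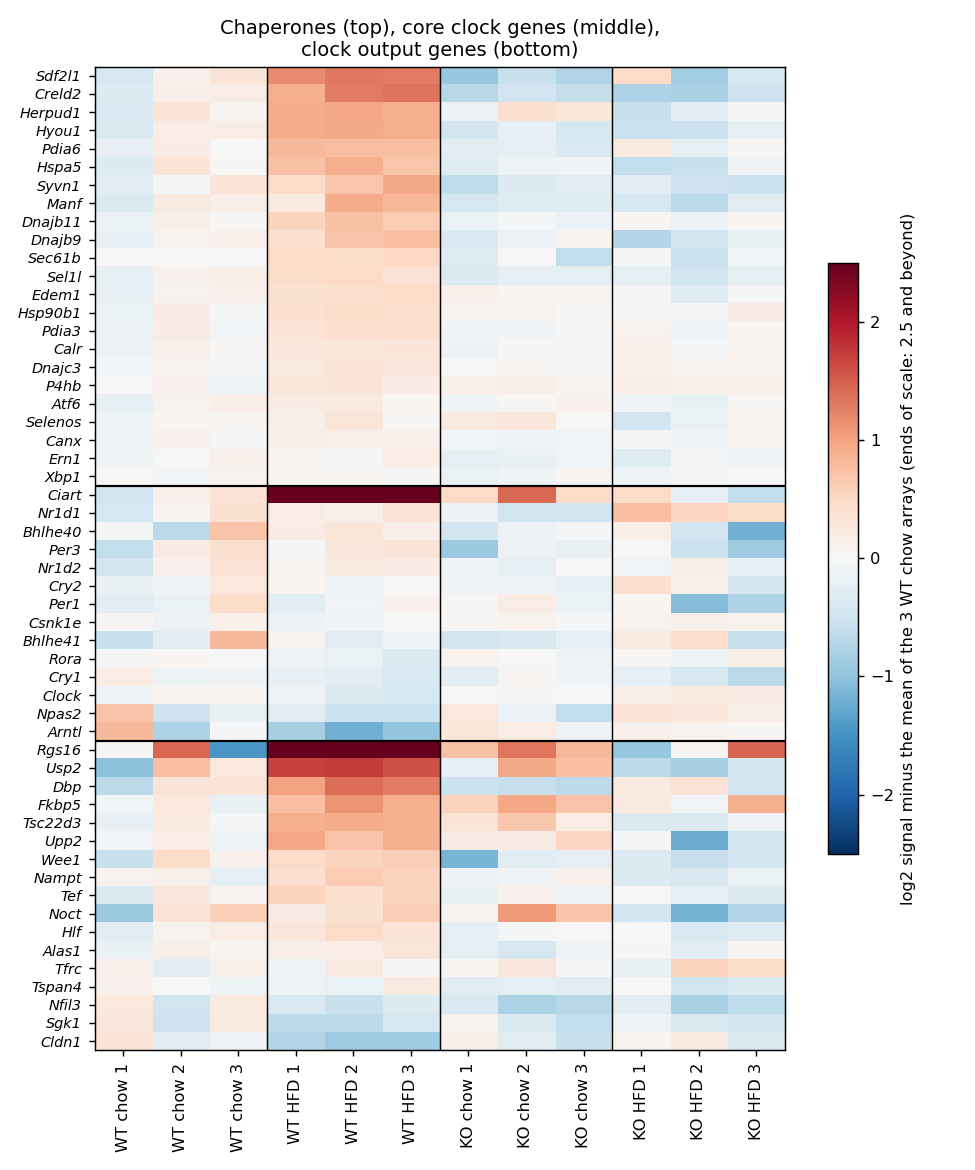
Log2 signal of each array minus the mean of the 3 WT chow arrays, as colour, for 23 endoplasmic reticulum chaperones (top), 14 core clock genes (middle) and 17 clock output genes (bottom), ordered by the WT diet difference. In columns WT HFD 1 to 3 most chaperones are red, from Sdf2l1 (1.18, 1.32 and 1.29) downwards, and Ciart and Rgs16 exceed the scale, while the 6 KO columns show no such block.

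Among the 25 genes measured for making fatty acids and triglyceride, 5 (20%) rose and 2 (8%) fell, where 4.02% of all genes rose and 2.94% fell, with a list median of -0.03. Thrsp read 6.73, 6.62 and 6.62 on chow and 9.78, 9.74 and 10.35 on HFD (3.30 ± 0.20, adjusted p = 4.57e-06). Lpin1 read 9.06, 9.99 and 9.65 on chow and 12.23, 12.30 and 12.28 on HFD (2.70 ± 0.46, adjusted p = 0.00443), and Dgat2, a final acyltransferase, rose by 0.52 ± 0.07. Dgat1, the other final acyltransferase gene, differed by -0.26 ± 0.11 (adjusted p = 0.198), and Lpin2, Gpam and Agpat2 of the same pathway also did not pass. Mogat1, a monoacylglycerol acyltransferase gene known for its rise in fatty liver, read 5.86, 6.28 and 6.27 on chow and 7.52, 7.51 and 8.29 on HFD (1.64 ± 0.20, adjusted p = 0.000692). For Thrsp, Lpin1, Dgat2 and Mogat1 all HFD arrays exceeded all chow arrays and the call held without any 1 array. Srebf1, the transcription factor gene of fatty acid synthesis, rose by 0.56 ± 0.13, but did not pass without WT HFD 3 (adjusted p = 0.081) or WT chow 1 (0.0658). Its known targets Fasn, the fatty acid synthase gene, and Scd1, the stearoyl-CoA desaturase gene, differed by 0.23 ± 0.14 (adjusted p = 0.405) and 0.11 ± 0.34 (adjusted p = 0.906). Scd1 read 13.46 to 13.67 on all 6 arrays, near the highest signal of the series (14.36). The elongase genes Elovl5 and Elovl6 fell by 0.38 ± 0.09 and 0.57 ± 0.13. The call of Elovl5 was lost when 1 of WT HFD 1 and 2 and WT chow 1 and 2 was left out (adjusted p from 0.0588 to 0.0821), that of Elovl6 was lost when 1 of WT HFD 1 and 2 and WT chow 2 and 3 was left out (adjusted p from 0.0621 to 0.0935). The count of falls was 0 without WT HFD 1 or 2 or WT chow 2, 1 without WT chow 1 or 3, 1 with median centring and 0 with the WT arrays alone.

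Sugar breakdown moved with it in part: 5 of 17 genes of glycolysis, fructose use and ChREBP rose and 2 fell. Pklr, the liver pyruvate kinase gene and a ChREBP target, read 9.83, 10.33 and 10.27 on chow and 11.24, 11.15 and 11.28 on HFD (1.08 ± 0.14, adjusted p = 0.00103). Pfkfb3, which makes the activator of glycolysis, rose by 1.30 ± 0.13, Khk, the first enzyme of fructose use, by 0.84 ± 0.12, the transaldolase gene Taldo1 by 0.58 ± 0.08 and the second pyruvate kinase gene Pkm by 0.43 ± 0.08. The lactate transporter gene Slc16a1 fell by 0.89 ± 0.10 and the lactate dehydrogenase gene Ldha by 0.39 ± 0.09. The call of Ldha was lost when 1 of WT HFD 1 and 2 and WT chow 1 and 3 was left out (adjusted p from 0.0724 to 0.0928). All 5 rises kept their calls without any 1 array.

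Many genes of fatty acid oxidation fell. Of 30 measured members 11 (36.7%) fell, where 2.94% of all genes fell, and 19 did not pass, with a list median of -0.23. Ehhadh, a peroxisomal enzyme, read 13.46, 13.37 and 13.27 on chow and 12.29, 12.26 and 12.28 on HFD (-1.09 ± 0.09, adjusted p = 5.08e-05). Acot1, an acyl-CoA thioesterase gene and PPAR alpha target, read 10.80, 11.10 and 10.97 on chow and 9.04, 9.22 and 8.92 on HFD (-1.90 ± 0.18, adjusted p = 0.000113). The arrays of both diets were well apart in these genes. Acot2 fell by 1.29 ± 0.19, the fatty acid hydroxylase gene Cyp4a31 by 1.74 ± 0.13 and Pdk4, which blocks the use of glucose by pyruvate dehydrogenase, by 1.77 ± 0.23. Cpt1a, the entry step of mitochondrial oxidation, fell by 0.31 ± 0.08, and its call was lost when 1 of KO chow 2, WT HFD 1, 2 and 3 and WT chow 1 and 2 was left out (adjusted p from 0.0522 to 0.108). Ppara itself differed by 0.18 ± 0.09 (adjusted p = 0.257). Fgf21, a target of PPAR alpha, read 8.68, 8.04 and 8.34 on chow and 6.61, 6.93 and 6.81 on HFD (-1.57 ± 0.30, adjusted p = 0.00853). The count of falls was 6 without WT HFD 1, 7 without WT HFD 2 or WT chow 1 or 2, 5 without WT HFD 3 and 7 with median centring or with the WT arrays alone. Of 30 genes of oxidative phosphorylation none passed by limma, with 3 higher and 2 lower at an unadjusted p under 0.05, a range from -0.28 to 0.22 and a median of -0.03.

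Uptake and droplet genes split. Of 27 measured, 4 rose and 5 fell. Cd36, the fatty acid transporter, read 10.93, 10.16 and 9.96 on chow and 11.94, 12.10 and 12.06 on HFD (1.68 ± 0.21, adjusted p = 0.000711). The droplet genes Plin4 and Fitm1 rose by 1.47 ± 0.19 and 1.26 ± 0.19. Cidea read 4.67, 5.15 and 4.88 on chow and 6.44, 8.06 and 8.66 on HFD, dim on all chow arrays, with WT HFD 1 well below the other two HFD arrays but above every chow array (2.82 ± 0.40, adjusted p = 0.00157). Plin2, the main coat protein of hepatocyte droplets, fell by 0.45 ± 0.07 and Acsl4, an acyl-CoA synthetase gene, by 0.60 ± 0.10. The lipase genes Pnpla2, Lipe and Mgll fell by 0.56 ± 0.14, 0.34 ± 0.09 and 0.33 ± 0.08. The call of Pnpla2 was lost when 1 of WT HFD 1 and 2 and WT chow 1 and 3 was left out (adjusted p from 0.0636 to 0.104), that of Lipe was lost when 1 of KO chow 1, WT HFD 2 and 3 and WT chow 1, 2 and 3 was left out (adjusted p from 0.0504 to 0.122), that of Mgll was lost when 1 of WT HFD 1, 2 and 3 and WT chow 2 and 3 was left out (adjusted p from 0.062 to 0.0939). The count of falls was 3 without WT HFD 1 or 3 or WT chow 1, 2 without WT HFD 2 or WT chow 3, 3 with median centring and 2 with the WT arrays alone. Cidec, another droplet gene, read 11.39, 9.94 and 9.68 on chow and 9.88, 10.70 and 10.67 on HFD, with no separation of the diets (0.08 ± 0.40, adjusted p = 0.943). Pparg was higher on each HFD array, 9.16, 8.71 and 8.74 on chow and 9.60, 9.75 and 10.00 on HFD, but did not pass (0.92 ± 0.49, adjusted p = 0.322), although it did when the 6 WT arrays were fitted alone (adjusted p = 0.0192). Of 11 adipocyte markers none rose and 1, Lipe, fell, with 2 higher and 1 lower at an unadjusted p under 0.05 by limma, and Adipoq and Lep, which define fat cells, were dim on both diets (Adipoq means of 4.73 on chow and 4.84 on HFD). The summed linear signal of the 11 markers was 11027 to 14779 on chow and 19090 to 19802 on HFD. Most of it came from Car3, a carbonic anhydrase gene that liver also expresses (0.70 ± 0.29, adjusted p = 0.185). The part of fat cell content in this sum was not tested.

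Of 18 measured genes of cholesterol synthesis and uptake 2 (11.1%) fell, where 2.94% of all genes fell, and 7 were lower and none higher at an unadjusted p under 0.05. The list median was -0.24. Those that fell were Hsd17b7, a sterol reductase gene (-1.12 ± 0.09), and Tm7sf2, another (-0.80 ± 0.17), whose call was lost without WT HFD 1 (adjusted p = 0.057), WT chow 1 (0.0501) or WT chow 3 (0.0514). Srebf2, the master regulator gene of the pathway, differed by -0.14 ± 0.14 (adjusted p = 0.641). Among 26 bile acid genes 4 fell and 1 rose (2 without KO HFD 1 or 2, 0 without WT HFD 2 or 3 or WT chow 1 or 3, 3 with median centring, among genes above the dim level or among genes above the median and 2 with the WT arrays alone or with trend and robust settings). Cyp8b1, the sterol hydroxylase needed for cholic acid, read 13.24, 13.13 and 13.21 on chow and 12.47, 12.11 and 12.45 on HFD (-0.85 ± 0.11, adjusted p = 0.000746). Cyp7b1, of the alternative route of bile acid synthesis, read 12.17, 12.50 and 12.38 on chow and 10.24, 9.99 and 10.34 on HFD (-2.16 ± 0.24, adjusted p = 0.000388). Slco1a1, an uptake transporter gene, fell by 1.19 ± 0.19. Cyp7a1, the rate-limiting enzyme of the main route, overlapped between the diets (-0.27 ± 0.24, adjusted p = 0.597). The phospholipid export pump gene Abcb4 fell by 0.44 ± 0.10 and the ileal-type bile acid transporter gene Slc10a2 rose by 1.12 ± 0.26. The call of Abcb4 was lost when 1 of WT HFD 2 and 3 and WT chow 1 and 2 was left out (adjusted p from 0.0507 to 0.0805), and that of Slc10a2 when 1 of WT HFD 2 and 3 and WT chow 1, 2 and 3 was left out (adjusted p from 0.0541 to 0.0901). Of 24 lipoprotein genes 1 (4.17%), close to the share of all genes, rose and 2 (8.33%) fell. Vldlr rose by 0.87 ± 0.16, and Apom, a carrier of sphingosine phosphate, fell by 0.58 ± 0.10. Mttp, which loads lipid onto apolipoprotein B, fell by 0.35 ± 0.09, a call lost when 1 of KO HFD 2, KO chow 1, 2 and 3, WT HFD 1, 2 and 3 and WT chow 1, 2 and 3 was left out (adjusted p from 0.0562 to 0.149). The count of rises among the lipoprotein genes was 2 without KO HFD 1, 2 or 3 or WT chow 1 or 2, 3 with median centring, among genes above the dim level or among genes above the median and 2 with the replicate block or with trend and robust settings.

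**Figure D3:**
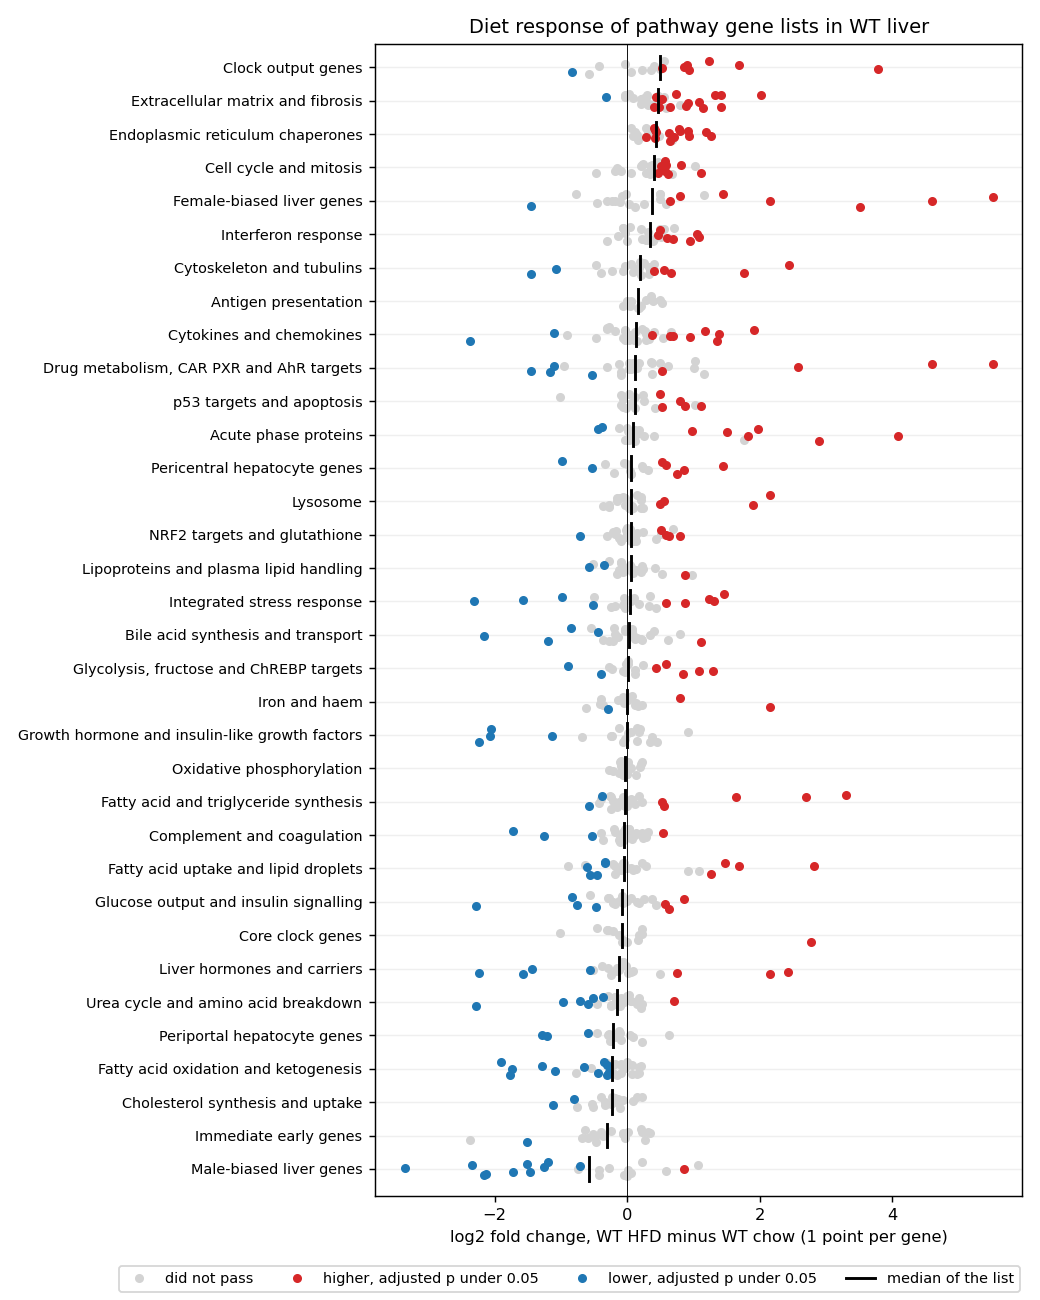
Log2 fold change on HFD in WT liver (horizontal axis) of every measured member of 34 pathway lists, 1 point per gene, red where the gene rose and blue where it fell at an adjusted p under 0.05, with the list median as a bar. Clock outputs (median 0.50), extracellular matrix (0.46) and chaperones (0.44) lie highest, and fatty acid oxidation (-0.23) and male-biased genes (-0.58) are among the lowest.

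Insulin signalling and glucose output changed in both directions, with 3 of 23 genes higher and 4 lower. Irs2, whose transcription insulin suppresses, read 9.80, 8.74 and 9.97 on chow and 7.14, 7.07 and 7.44 on HFD (-2.29 ± 0.30, adjusted p = 0.00105). Igfbp1, also repressed by insulin, read 12.19, 11.22 and 11.72 on chow and 9.59, 9.32 and 9.52 on HFD (-2.23 ± 0.30, adjusted p = 0.00123). For both, the HFD arrays were tightly grouped below all chow arrays. Pik3r1, the regulatory subunit of PI3 kinase, rose by 0.85 ± 0.14, the glucose transporter gene Slc2a2 by 0.57 ± 0.08 and the glycogen phosphorylase gene Pygl by 0.63 ± 0.11. Irs1 fell by 0.83 ± 0.20, a call lost when 1 of WT HFD 2 and 3 and WT chow 2 and 3 was left out (adjusted p from 0.0586 to 0.0968). Ppargc1a, a coactivator of glucose output and oxidation, fell by 0.76 ± 0.18, and G6pc, the last step of glucose output, by 0.47 ± 0.10. The call of G6pc was lost when 1 of WT HFD 2 and 3 and WT chow 1 and 3 was left out (adjusted p from 0.0577 to 0.0727). The call of Ppargc1a was lost when 1 of WT HFD 1, 2 and 3 and WT chow 2 and 3 was left out (adjusted p from 0.0657 to 0.0886). Pck1, the entry step of glucose synthesis, differed by -0.27 ± 0.07 and narrowly did not pass (adjusted p = 0.051). The count of falls was 1 without WT HFD 2 or 3 or WT chow 3, 2 without WT chow 2 and 7 among genes above the median.

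Many male-biased liver genes fell and several female-biased genes rose. Both patterns are known to be set by growth hormone. Of 22 measured male-biased liver genes 10 (45.5%) fell and 1, Cyp2u1 (0.85 ± 0.15), rose (2 without KO HFD 1), with a list median of -0.58. Of 24 female-biased genes 7 rose and 1, Cyp3a44, fell, with a median of 0.37. Besides Cyp4a12b, Cyp7b1 and Ugt2b38, the complement genes C6 and C8b, which are higher in male liver, fell by 1.72 ± 0.09 and 1.26 ± 0.08, and the proteoglycan gene Cspg5 by 1.47 ± 0.19. C6 read 11.86, 12.09 and 12.08 on chow and 10.44, 10.16 and 10.28 on HFD. Female-biased genes that rose included, besides Cyp2b9, Cyp2b13 and Slc22a27, the oxidase gene Hao2 (1.45 ± 0.23, dim on both diets). Rtn4, a reticulon of the endoplasmic reticulum, rose by 0.65 ± 0.11. The count of female-biased rises was 5 among genes above the dim level and 4 among genes above the median. Socs2, which growth hormone induces through STAT5, read 10.68, 10.55 and 11.13 on chow and 8.24, 8.64 and 9.25 on HFD (-2.07 ± 0.22, adjusted p = 0.000256). Of 20 genes of growth hormone and insulin-like growth factors 4 fell, the other 3 being Igfbp1, Igfbp2 (-2.05 ± 0.12) and the receptor gene Egfr (-1.13 ± 0.12). These 4 calls held without any 1 array. The call of Cyp2u1 held without any 1 array.

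Drug metabolism genes also went both ways, 4 higher and 4 lower of 28. Cyp2b10, the classic target of the receptor CAR, read 6.84, 5.08 and 5.43 on chow and 7.72, 8.50 and 8.87 on HFD (2.58 ± 0.47, adjusted p = 0.00639), and no chow array reached the lowest HFD array. Cyp2a5 rose by 0.52 ± 0.11, a call lost when 1 of WT HFD 1 and 3 and WT chow 1 and 3 was left out (adjusted p from 0.0522 to 0.0575). Cyp3a11, the classic target of PXR, read 11.70, 11.60 and 11.37 on chow and 10.10, 10.67 and 10.61 on HFD (-1.10 ± 0.15, adjusted p = 0.0011). Its relative Cyp3a44 fell by 1.45 ± 0.18 and the carboxylesterase gene Ces2a by 1.16 ± 0.13. Cyp1a2 fell by 0.53 ± 0.13, a call lost when 1 of WT HFD 1 and 2 and WT chow 2 and 3 was left out (adjusted p from 0.0842 to 0.118). Among 26 NRF2 targets and glutathione genes Gstp1, a glutathione transferase gene with male bias, fell by 0.72 ± 0.11, and 4 rose, of which Slc7a11 kept its call without any 1 array. The other 3 were Gsta3 (0.63 ± 0.13), Hmox1 (0.79 ± 0.19) and Pgd (0.51 ± 0.12). Gsta3 lost its call without WT HFD 3 (adjusted p = 0.063) or WT chow 1 (0.056), Hmox1 when 1 of WT HFD 2 and 3 and WT chow 2 and 3 was left out (adjusted p from 0.0565 to 0.101), and Pgd when 1 of WT HFD 2 and 3 and WT chow 2 and 3 was left out (adjusted p from 0.0621 to 0.0924).

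Amino acid breakdown and the urea cycle were lower in 6 of 27 genes and higher in 1, Prodh, the proline dehydrogenase gene (0.70 ± 0.13). Csad read 11.43, 11.43 and 11.57 on chow and 9.50, 8.77 and 9.31 on HFD (-2.28 ± 0.16, adjusted p = 1.05e-05). The aminotransferase gene Got1 fell by 0.97 ± 0.16 and Asl, argininosuccinate lyase of the urea cycle, by 0.59 ± 0.10. Of the liver hormones and carriers 3 of 21 rose and 4 fell. Hamp2, a relative of the iron hormone hepcidin, read 9.02, 9.33 and 9.31 on chow and 11.32, 11.13 and 11.67 on HFD (2.15 ± 0.33, adjusted p = 0.00238). Among 18 iron genes Hamp2 and Hmox1 rose and the receptor gene Tfr2 fell by 0.29 ± 0.07, a call lost when 1 of KO chow 1, 2 and 3, WT HFD 1, 2 and 3 and WT chow 1 and 3 was left out (adjusted p from 0.0521 to 0.133). The count of iron genes that fell was 0 without KO chow 1, 2 or 3, WT HFD 1, 2 or 3 or WT chow 1 or 3, 4 without WT chow 2 and 0 with median centring, with the WT arrays alone or with the replicate block. In the list of p53 targets and apoptosis genes 5 of 19 rose, and each call was kept without any 1 array. They were the cyclin gene Ccng1 (1.11 ± 0.09), the death receptor gene Tnfrsf10b (0.87 ± 0.14), Phlda3 (0.80 ± 0.11), Aen (0.53 ± 0.11) and Bcl2l1, an inhibitor of cell death (0.50 ± 0.07). Ccng1 read 10.39, 10.25 and 10.22 on chow and 11.51, 11.37 and 11.31 on HFD, with no overlap. The count of amino acid genes that fell was 3 without WT HFD 2, and that of hormones that fell was 2 without KO chow 2, WT HFD 1, 2 or 3 or WT chow 1 or 3. The count of hormones that rose was 1 without WT HFD 3 or WT chow 1.

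Acute phase genes, which hepatocytes make in inflammation, rose in 6 of 28 cases (21.4%) and fell in 2 (7.14%), Serpina1a and Itih3, an inhibitor heavy chain gene (-0.38 ± 0.10). Orm3 read 4.48, 5.62 and 6.17 on chow and 9.36, 9.22 and 9.93 on HFD (4.08 ± 0.37, adjusted p = 8.4e-05) and Lcn2 7.93, 7.38 and 7.72 on chow and 10.43, 10.59 and 10.69 on HFD (2.89 ± 0.43, adjusted p = 0.00224). Orm2 rose by 1.82 ± 0.37, Steap4, a metalloreductase gene, by 1.97 ± 0.19, and the serum amyloid genes Saa3 and Saa4 by 1.51 ± 0.31 and 0.98 ± 0.15. Of 12 neutrophil markers none passed by limma and 1 was higher at an unadjusted p under 0.05. The part of neutrophil content in the rise of Lcn2 was not tested. Of these 12 markers 8 were dim on both diets, among them S100a8, S100a9 and Ly6g, and their summed linear signal was 475 to 545 on chow and 509 to 535 on HFD. The call of Saa3 was lost without WT HFD 1 (adjusted p = 0.0525), that of Itih3 was lost when 1 of WT HFD 1, 2 and 3 and WT chow 1 and 3 was left out (adjusted p from 0.0706 to 0.116). The count of acute phase falls was 1 without WT HFD 1, 2 or 3 or WT chow 1 or 3 and 1 with median centring or with the WT arrays alone.

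Several chemokine genes rose and both interleukin 1 genes fell. Of 34 cytokine and chemokine genes 8 rose and 2 fell. Ccl2, which draws in monocytes, read 6.78, 6.31 and 6.04 on chow and 7.76, 7.55 and 7.36 on HFD (1.18 ± 0.21, adjusted p = 0.00557). Ccl3 rose by 1.39 ± 0.20 and the receptor gene Il1r1 by 1.91 ± 0.25. The chemokine genes Cxcl9 and Cxcl10, induced by interferon, rose by 1.36 ± 0.30 and 0.95 ± 0.21. Cxcl9 lost its call without WT HFD 1 (adjusted p = 0.0692), WT HFD 2 (0.0509) or WT chow 3 (0.0777), and Cxcl10 when 1 of WT HFD 1 and 3 and WT chow 2 and 3 was left out (adjusted p from 0.0607 to 0.0689). Il1a fell with Il1b, by 1.10 ± 0.27. Tnf differed by 0.27 ± 0.10 (adjusted p = 0.161). Of 28 interferon response genes 7 rose and 21 did not pass, with a median of 0.35. Gbp3 rose by 1.08 ± 0.19 from a dim level, the GTPase gene Irgm1 by 0.47 ± 0.09, and Isg15, a ubiquitin-like protein gene, by 0.50 ± 0.10. The rises among cytokines numbered 4 without WT HFD 1 or WT chow 3 and 5 without WT HFD 2 or WT chow 1 or 2, and among interferon genes 3 without WT HFD 1 or 3 or WT chow 3 and 4 without WT chow 2. Of 14 genes of antigen presentation none passed by limma and 5 were higher at an unadjusted p under 0.05. The call of Il1a was lost when 1 of WT HFD 1, 2 and 3 and WT chow 1 and 3 was left out (adjusted p from 0.0662 to 0.109).

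Many matrix genes rose. Of 35 genes of the extracellular matrix and fibrosis 14 (40%) rose, where 4.02% of all genes did, and Mmp14 fell, with a list median of 0.46. Col1a1, the main collagen of scar tissue, read 7.16, 7.24 and 6.89 on chow and 8.77, 8.25 and 8.52 on HFD (1.42 ± 0.13, adjusted p = 0.000108). Col3a1, a second fibrillar collagen, read 6.83, 7.00 and 6.80 on chow and 8.52, 8.09 and 7.99 on HFD (1.32 ± 0.14, adjusted p = 0.000226). WT HFD 1 was the highest array for both, and all HFD arrays exceeded all chow arrays. Col14a1 rose by 0.88 ± 0.10, Col1a2 by 0.91 ± 0.14, and the protease inhibitor gene Timp1 by 1.41 ± 0.17 from a dim level. Mmp12, an elastase gene of macrophages, read 5.82, 5.60 and 5.68 on chow and 8.03, 7.66 and 7.46 on HFD (2.02 ± 0.13, adjusted p = 6.75e-06). The call of Mmp14 (-0.32 ± 0.08) was lost when 1 of KO chow 1, 2 and 3, WT HFD 1, 2 and 3 and WT chow 1 and 3 was left out (adjusted p from 0.0568 to 0.135), and the count of rises was 8 without WT HFD 1 or WT chow 3.

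Markers of cell types known to make these genes were set beside them. The lists share members, so they are not independent of each other. Col1a1 and Col3a1 belong to both the matrix and the stellate lists, and Mmp12 to both the matrix and the macrophage lists. Of 15 markers of recruited and lipid-associated macrophages 8 (53.3%) rose and 1, Cd9, fell, and their summed linear signal was 2164 to 2745 on chow and 3269 to 3511 on HFD. Trem2, a lipid receptor of these macrophages, read 6.61, 6.38 and 6.40 on chow and 7.72, 7.61 and 7.07 on HFD (1.01 ± 0.16, adjusted p = 0.00305), and Gpnmb read 5.39, 5.52 and 5.05 on chow and 7.75, 7.21 and 6.71 on HFD (1.90 ± 0.21, adjusted p = 0.000377). Cd63 and the galectin gene Lgals3 rose by 0.60 ± 0.09 and 0.55 ± 0.09. Of 14 markers of Kupffer cells, the resident macrophages, none passed by limma, though 6 were higher at an unadjusted p under 0.05. Clec4f, which defines them, differed by 0.03 ± 0.13 (adjusted p = 0.932), and the macrophage receptor gene Adgre1 by 0.57 ± 0.20 (adjusted p = 0.112). Of 15 markers of stellate cells and fibroblasts Col1a1, Col3a1 and Lrat rose, the last by 0.44 ± 0.10, a call lost when 1 of WT HFD 1 and 2 and WT chow 1 and 3 was left out (adjusted p from 0.0632 to 0.0916). Their sum was 11431 to 13470 on chow and 13368 to 14386 on HFD. In bulk tissue, a change in the number of cells of a type and a change of RNA per cell cannot be told apart. The part of macrophage or stellate cell content in the changes of cytokine, interferon and matrix genes was not tested. The fall of Cd9 (-0.47 ± 0.10) was lost when 1 of WT HFD 1, 2 and 3 and WT chow 1 and 3 was left out (adjusted p from 0.0513 to 0.0778), and the count of falls in that macrophage list was 2 without KO HFD 1, 0 without WT HFD 1, 2 or 3 or WT chow 1 or 3, 0 with the WT arrays alone and 2 with the replicate block, among genes above the dim level or among genes above the median.

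Other cell types gave few calls. Among 10 cholangiocyte markers 3 rose, Tspan8 (0.70 ± 0.14, dim on both diets), Muc1 (0.71 ± 0.15) and Pkhd1 (0.57 ± 0.15). Muc1 lost its call without WT HFD 1 (adjusted p = 0.0594), WT HFD 3 (0.0543) or WT chow 1 (0.0501), and Pkhd1 when 1 of KO HFD 2, KO chow 1, 2 and 3, WT HFD 1 and 3 and WT chow 1, 2 and 3 was left out (adjusted p from 0.0606 to 0.152). Single markers fell among T and NK cells (Cxcr6, -0.42 ± 0.10, dim on both diets), B and plasma cells (Sdc1, -0.47 ± 0.10, which hepatocytes also express) and endothelium (Kdr, -0.41 ± 0.11). The count of T and NK cell falls was 0 among genes above the dim level. The count of endothelial markers that rose was 0, and 2 without WT chow 1 and 1 with trend and robust settings, among genes above the dim level or among genes above the median. B and plasma cell falls numbered 2 without KO chow 1 or 3, 0 without WT HFD 3 and 2 with the WT arrays alone or with trend and robust settings. Cxcr6 lost its call when 1 of WT HFD 2 and WT chow 1, 2 and 3 was left out (adjusted p from 0.0509 to 0.093), Sdc1 without WT HFD 3 (adjusted p = 0.0538), and Kdr when 1 of KO HFD 2, KO chow 1, 2 and 3, WT HFD 2 and 3 and WT chow 1, 2 and 3 was left out (adjusted p from 0.0505 to 0.145). The 9 dendritic cell, 4 erythroid, 9 pancreas and 10 skeletal muscle markers gave no call by limma, and at an unadjusted p under 0.05 there were 1 higher and 1 lower dendritic cell marker and 1 lower pancreas marker.

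**Figure D4:**
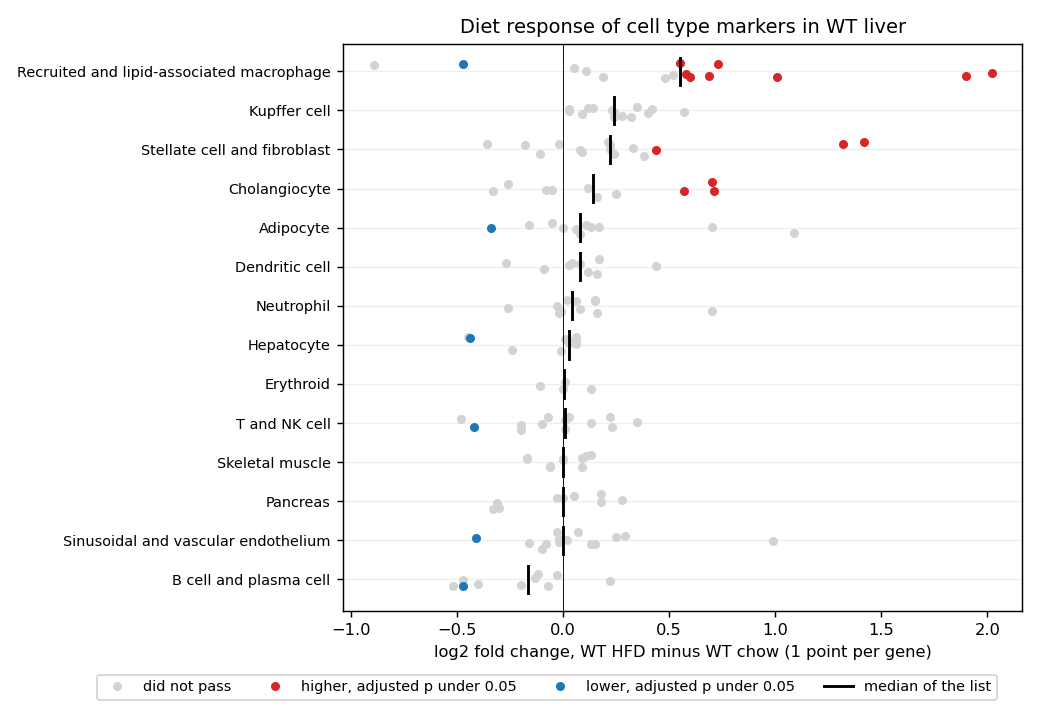
Log2 fold change on HFD in WT liver (horizontal axis) of the markers of 14 cell types, 1 point per gene, red where it rose and blue where it fell at an adjusted p under 0.05, with the list median as a bar. Markers of recruited and lipid-associated macrophages lie highest, with a median of 0.55, ahead of Kupffer cells (0.24) and stellate cells (0.22), and hepatocyte markers lie at 0.03.

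Cell cycle genes were higher in 8 of 31 cases (25.8%), and 23 did not pass, with a median of 0.41. Ccnb2, a mitotic cyclin, read 7.23, 6.61 and 7.20 on chow and 8.23, 8.09 and 8.07 on HFD (1.11 ± 0.15, adjusted p = 0.00136). Mki67, the proliferation marker, rose by 0.61 ± 0.11 and Cdc20, which drives exit from mitosis, by 0.51 ± 0.09. The count was 5 without WT chow 3. In the cytoskeleton list 5 of 23 rose and 2 fell. Lgals1, a galectin, read 9.18, 9.37 and 9.47 on chow and 11.68, 11.78 and 11.88 on HFD (2.44 ± 0.17, adjusted p = 7.63e-06). Anxa2, a membrane-binding annexin gene, rose by 1.76 ± 0.17, while the tubulin genes Tuba8 and Tubb2a fell by 1.45 ± 0.14 and 1.08 ± 0.21. The count of rises in that list was 3 without WT HFD 1 or 3 or WT chow 2 or 3 and 8 with trend and robust settings or among genes above the dim level. Lysosomal genes rose in 4 of 23 cases, among them Hexa, a hexosaminidase gene (0.50 ± 0.09), and Gpnmb, which belongs to 2 lists. The lysosomal count was 2 without WT HFD 1 or 2 or WT chow 3. In complement and coagulation 3 of 31 genes (9.68%) fell and 1 (3.23%) rose, where 4.02% of all genes rose and 2.94% fell. Those that fell were C6, C8a (-0.53 ± 0.12) and C8b, and the one that rose was Mbl2, a lectin that activates complement, by 0.54 ± 0.13. C8a lost its call without WT HFD 3 (adjusted p = 0.0741), WT chow 2 (0.06) or WT chow 3 (0.0694), and Mbl2 when 1 of WT HFD 1, 2 and 3 and WT chow 1 and 2 was left out (adjusted p from 0.0511 to 0.0907). The complement falls numbered 5 among genes above the median, and the rises 0 without WT HFD 1, 2 or 3 or WT chow 1 or 2 and 2 with median centring, with trend and robust settings, among genes above the dim level, among genes above the median, with the mean of probe sets or with every probe set.

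Genes of the liver zones moved in both directions. Of 17 pericentral genes 5 rose and 2 fell, and of 16 periportal genes 3 fell (5 with trend and robust settings or among genes above the dim level and 6 among genes above the median). Slc13a3, a dicarboxylate transporter gene, read 7.87, 8.19 and 8.40 on chow and 9.50, 9.44 and 9.87 on HFD (1.45 ± 0.20, adjusted p = 0.00122), and the ammonia transporter gene Rhbg rose by 0.85 ± 0.17, a call lost without WT chow 1 (adjusted p = 0.0509). Tbx3, a transcription factor of the pericentral zone, fell by 0.98 ± 0.12 and the periportal cadherin gene Cdh1 by 1.28 ± 0.22. The third periportal gene besides Cdh1 and Asl was Etnppl (-1.21 ± 0.32), whose call was lost when 1 of KO chow 2 and 3, WT HFD 1, 2 and 3 and WT chow 1, 2 and 3 was left out (adjusted p from 0.0519 to 0.135). The count of pericentral rises was 3 without WT HFD 1 or WT chow 3, 2 without WT HFD 3 and 1 without WT chow 1, and that of pericentral falls 1 without WT HFD 1 or 2 or WT chow 2 or 3 and 1 with the WT arrays alone or with the replicate block.

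The same diet was compared in the mice labelled KO, with 3 arrays on each diet and no array in common with the WT comparison. The sources used here do not give the part of Ahnak that was deleted, and its 1 probe set read 6.50 to 7.26 in WT and 6.38 to 6.74 in KO arrays, so it was not used as a check of the labels. On HFD 54 genes (0.243%) changed in KO liver, 19 (0.0857%) higher and 35 (0.158%) lower. The WT minus KO difference of the diet effect, tested as an interaction, passed for 783 genes (3.53%). It numbered 489 without KO HFD 2, 443 and 481 without WT HFD 2 and 3, 444 without WT chow 3, and 432 and 434 without KO chow 2 and 3, while the KO count was 28 and 35 without KO chow 2 and 3. Of the WT rises 2 also rose in KO, 0.224% of the WT list and 10.5% of the KO list, and 4 falls were shared, 0.613% and 11.4%. These were Saa3 and Dio1, a thyroid hormone deiodinase gene, on one side, and Ces2a, Cyp3a11, Cyp3a44 and the zinc transporter gene Slc39a4 on the other. The call of Slc39a4 was lost without WT HFD 1 (adjusted p = 0.0543) or WT HFD 2 (0.0558).

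A further 16 genes changed in opposite directions in WT and KO. Higher in WT and lower in KO were 9, Cyp26a1, Cyp2a5, Cyp2b9, Dsg1c, Hamp2, Hnmt, Mbl2, Serpinb1a and Vldlr, which make 1.01% of the WT rises and 25.7% of the KO falls. Lower in WT and higher in KO were 7, C6, Gm4450, Paqr9, Ppp1r9a, Spon2, Ugt2b38 and Zscan4a. Cyp2b9 read 7.87, 11.31 and 12.29 on KO chow arrays and 6.18, 4.39 and 3.98 on KO HFD arrays, a fall of 5.64 ± 0.94 on HFD in KO, whereas it rose by 5.52 ± 0.94 in WT. The KO chow arrays spread more widely than those of the other groups for this gene. The call of Cyp26a1 was lost when 1 of WT HFD 1 and 2 and WT chow 2 and 3 was left out (adjusted p from 0.0745 to 0.0896), that of Zscan4a was lost when 1 of WT HFD 1 and 3 and WT chow 2 and 3 was left out (adjusted p from 0.0629 to 0.0937). Hamp2 read 8.94, 10.49 and 10.22 on KO chow arrays and 6.74, 7.18 and 6.42 on KO HFD arrays, and its KO HFD arrays all read below its WT chow arrays. Hnmt, the histamine methyltransferase gene, rose by 1.64 ± 0.11 in WT and fell by 0.77 ± 0.11 in KO. The chaperone list had a median of 0.01 in KO, fatty acid oxidation 0.07 and extracellular matrix 0.01. Male-biased genes had a KO median of 0.47 with 4 rises, and female-biased genes one of -0.59 with 6 falls.

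**Figure D5:**
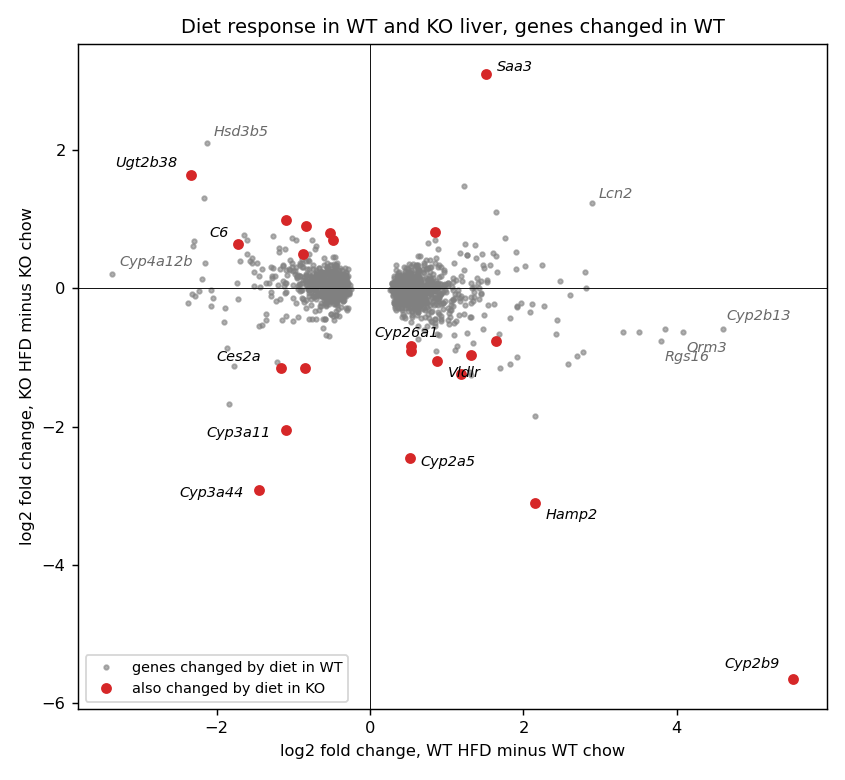
Log2 fold change on HFD in WT liver (horizontal axis) against that in KO liver (vertical axis) for the 1543 genes changed in WT, with the 22 also changed in KO in red. Most genes lie near 0 on the vertical axis, and Cyp2b9 stands apart at 5.52 in WT and -5.64 in KO.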

How the data were processed

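Total RNA from mouse liver was biotin-labelled and hybridised to expression arrays, 12 in all. The authors deposited normalized log2 signals of 41345 probe sets per array. The submitters' processing notes name oligo, without a version or method. The values (1.40 to 14.36, 0 missing) were used as deposited. Symbols came from the array annotation, updated through RefSeq gene numbers of GRCm38.p6: 23521 probe sets had 1 symbol (23328 matched by number, 193 not), 1814 had several and 16010 had none here. Where a gene had several probe sets (1082 of 22180 genes), the one with the highest mean was used.

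One linear model held all 4 groups (lmFit and eBayes of limma 3.58.1, R 4.3.3, no filter) and gave the diet effect in WT, in KO, and their difference. P values were adjusted by Benjamini-Hochberg over all genes within a comparison, and genes under 0.05 were called changed. The code was tested on simulated data. Gene lists are described by counts and medians, and promoters by motif matches, with no test.

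The comparison, the 34 pathway and 14 marker lists and the alternatives were chosen with earlier results of these data known. Genes named are the 12 largest rises and 12 largest falls among called genes whose arrays did not overlap (unnamed gene models left out), up to 4 members per list with the smallest p, any member as an example of a count, and a set of 29 regulators, enzymes and controls such as Ppara, Scd1, Cyp7a1, Tnf, Arntl and Xist. Genes shared by WT and KO and genes with a promoter element were named after their values were seen. Nnt, which some C57BL/6 substrains lack in part, read 9.81, 10.75 and 10.78 on chow and 10.76, 10.75 and 10.75 on HFD in WT and differed by 0.31 ± 0.30 (adjusted p = 0.632). The alternatives covered the arrays fitted, the replicate block, eBayes settings, array weights, quantile normalization, median centring, dim filters, probe set rules, thresholds and leaving out each array.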

Additional observations from a re-analysis of the deposited data

Results flagged for a closer look

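The effect of the diet differed between WT and KO mice for 118 of the genes named above, by the interaction of genotype and diet in limma at an adjusted p under 0.05, and each value is the WT log2 fold change minus the KO one. Among sex-biased and drug metabolism genes, the difference was 11.16 for Cyp2b9, 5.18 for Cyp2b13, 4.15 for Slc22a27, 3.67 for Cyp2b10, 2.98 for Cyp2a5, 1.53 for Hao2, 1.47 for Cyp3a44, 1.36 for Gsta3, 0.95 for Cyp3a11 and 0.70 for Rtn4. It was -4.23 for Hsd3b5, -3.98 for Ugt2b38, -3.56 for Cyp4a12b, -2.36 for C6, -1.82 for Cspg5, -1.55 for C8b and -0.84 for Gstp1. Among genes of lipid and bile acid metabolism, the difference was 3.94 for Thrsp, 3.68 for Lpin1, 2.82 for Cidea, 2.34 for Cd36, 2.06 for Plin4, 1.92 for Vldlr, 1.17 for Mogat1 and 0.64 for Dgat2. It was -3.45 for Cyp7b1, -1.82 for Cyp4a31, -1.77 for Slco1a1, -1.41 for Acot1, -1.35 for Ehhadh, -1.23 for Acot2, -1.15 for Hsd17b7, -0.97 for Cyp8b1 and -0.68 for Abcb4. Further values were -0.66 for Acsl4, -0.53 for Plin2 and -0.49 for Elovl5. Among genes of glucose, amino acid and hormone pathways, the difference was 5.26 for Hamp2, 1.71 for Pfkfb3, 1.34 for Khk, 1.30 for Prodh, 0.93 for Pklr, 0.85 for Pygl, 0.84 for Pik3r1, 0.81 for Slc2a2, 0.53 for Taldo1 and 0.49 for Pkm. It was -2.97 for Irs2, -2.20 for Igfbp1, -2.16 for Csad, -1.96 for Fgf21, -1.92 for Igfbp2, -1.82 for Socs2, -1.47 for Egfr, -1.19 for Slc16a1 and -0.58 for Ldha. Among clock and immediate early genes, the difference was 4.55 for Rgs16, 3.69 for Ciart, 2.84 for Usp2, 1.77 for Upp2 and 1.57 for Tsc22d3. It was -1.75 for Egr1. Among genes of the endoplasmic reticulum and stress responses, the difference was 2.26 for Ddit4, 1.49 for Ddit3, 1.41 for Herpud1, 1.30 for Creld2, 1.19 for Ccng1, 1.03 for Hspa5, 0.99 for Hyou1, 0.90 for Tnfrsf10b, 0.84 for Phlda3 and 0.55 for Bcl2l1. It was -1.18 for Atf5. Among inflammatory and interferon genes, the difference was 4.72 for Orm3, 2.92 for Orm2, 2.19 for Steap4, 2.18 for Il1r1, 1.38 for Mbl2, 1.35 for Gbp3, 1.24 for Ccl3, 0.92 for Saa4 and 0.57 for Irgm1. It was -2.17 for Il1b, -0.76 for C8a and -0.50 for Serpina1a. Among matrix, macrophage and cytoskeleton genes, the difference was 2.90 for Lgals1, 1.70 for Mmp12, 1.62 for Gpnmb, 1.45 for Col3a1, 1.42 for Col1a1, 1.34 for Timp1, 1.04 for Anxa2, 0.93 for Trem2 and 0.90 for Col1a2. Further values were 0.86 for Col14a1, 0.84 for Lrat, 0.83 for Hexa and 0.52 for Lgals3. It was -1.27 for Tubb2a and -0.91 for Tuba8. Among cell cycle and liver zone genes, the difference was 1.53 for Slc13a3, 1.40 for Rhbg, 1.25 for Ccnb2, 0.76 for Mki67 and 0.67 for Cdc20. It was -1.42 for Cdh1 and -1.23 for Tbx3. Among the remaining named genes, the difference was 2.72 for Gbp10, 2.56 for Sprr1a, 2.42 for Serpinb1a, 2.41 for Hnmt, 2.28 for Dsg1c and 1.44 for Cyp26a1. It was -2.09 for Gm4450, -1.73 for Spon2, -1.36 for Paqr9, -1.32 for Ppp1r9a and -1.18 for Zscan4a. Many of these genes were named because of a large change in WT, so their share among named genes says nothing about other genes.

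Probe sets without a single gene symbol stand outside the comparisons of genes. With all probe sets tested together, 258 of these 17824 (1.45%) differed between WT HFD and WT chow, 97 higher and 161 lower on HFD. They are not named here.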

How the results depend on the processing

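The count of genes changed by diet in WT liver was within 1.5 times the reported 1543 with the 6 WT arrays alone (1060), quantile normalization (1585), median centring (1546), array weights (1708), trend and robust settings (2069), genes above the dim level (2158) or the median (2213), the mean of probe sets (1517) and every probe set (1569). It moved further to 206 with a 2-fold minimum (122 higher, 84 lower) and to 561 at an adjusted p under 0.01 (338 and 223). The count of falls alone was 1002 above the median and 430 with the 6 WT arrays alone. Without 1 array at a time the total ran from 815 to 1691, with 495 to 977 rises and 318 to 714 falls. The interaction count was 1252 above the dim level, 1394 above the median, 1201 with trend and robust settings, 275 with a 2-fold minimum, 210 at 0.01 and 432 to 718 without 1 array. The KO count was 112, 124, 124, 28 and 29 under the same 5 settings and 28 to 79 without 1 array. Genes whose diet groups do not overlap numbered 7656 to 8373 without 1 WT array, since fewer arrays overlap less.

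The labels do not say whether the replicate numbers pair the samples. Over all genes, deviations of same-numbered samples correlated between -0.064 and 0.08, which does not exclude a shared effect on some genes. With the number as a replicate block, 1290 genes changed in WT (755 higher, 535 lower), 40 in KO and 612 by interaction. Of the 179 named genes called in WT, 10 lost the call under it.

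Over the 215 named genes, 4327 of 4690 values under the alternatives kept their direction and side of the threshold, 310 lost the call, 36 gained it and 17 turned sign. The call held without any 1 array for 123 genes. Of 2016 counts of rises or falls in the gene lists, 284 moved by over 1.5 times, 183 of them on leaving out 1 array. Signs turned for these genes, none of them called in WT: Agpat2 was 0.02 (-0.03 to 0.06 without 1 array) and turned to 0.00 without WT HFD 3 and -0.03 without WT chow 2. Cidec was 0.08 (-0.25 to 0.61 without 1 array) and turned to -0.06 without WT HFD 2, -0.05 without WT HFD 3, -0.12 without WT chow 2 and -0.25 without WT chow 3. Clec4f was 0.03 (-0.03 to 0.07 without 1 array) and turned to -0.03 without WT HFD 3. Lpin2 was -0.03 (-0.15 to 0.08 without 1 array) and turned to 0.01 with median centring, 0.02 without WT HFD 3 and 0.08 without WT chow 2. Ly6g was 0.16 (-0.09 to 0.35 without 1 array) and turned to -0.09 without WT chow 2. Nnt was 0.31 (-0.01 to 0.47 without 1 array) and turned to -0.01 without WT chow 1. S100a9 was 0.06 (-0.09 to 0.22 without 1 array) and turned to -0.01 without WT HFD 2 and -0.09 without WT chow 1. Xist was 0.02 (-0.13 to 0.13 without 1 array) and turned to 0.00 with array weights, -0.13 without WT HFD 3 and -0.06 without WT chow 2. The cause of these moves was not tested. Signal over background limits the sizes given for dim genes, and 3 arrays per group limit the rest.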
